A study of Mus musculus with 7 samples.

Results

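The genes described here encode the small secreted or membrane-bound signals of immunity and inflammation, namely the CC chemokines (Ccl), the CXC, CX3C and XC chemokines (Cxcl, Cx3cl, Xcl), the interleukins (Il) and the TNF ligands (Tnfsf and *Tnf*), together with *Csf1*, *Csf2*, *Csf3* and *Lif*. They were chosen by symbol alone, as mouse genes whose GENCODE symbol is one of these prefixes followed by a number and at most 1 letter. That letter could be any for chemokines, a to f for interleukins and b for TNF ligands. *Il36g*, for example, was thus not included. Of 93 such symbols in the annotation, 91 had transcripts in the files, among 52230 genes in all, and all 91 were protein coding. Of the 91, 57 had enough reads to be tested, 23 had some reads but too few, and 11 had 0 reads in all 7 libraries. The tested members were 17 of 24 CC chemokines, 10 of 15 CXC, CX3C or XC chemokines, 16 of 36 interleukins, 11 of 12 TNF ligands, and 3 of the 4 genes *Csf1*, *Csf2*, *Csf3* and *Lif*. A member that passed this filter only through the group in which it was high had to differ between the groups, so the counts below refer to the tested members and not to all members.

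Chemokines bind G protein-coupled receptors on leukocytes and set the direction in which these cells migrate, whereas atypical receptors of the Ackr group take chemokines up without that signal. Interleukins and colony-stimulating factors act through receptor chains that they share in part, such as *Il6st*, the common chain for *Il6*, *Il11* and *Lif*. TNF ligands form trimers and act on receptors of the Tnfrsf family. In the ovary, ovulation has long been compared with an inflammatory reaction, in which leukocytes enter the tissue around the follicle after the surge of luteinising hormone.

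RNA-seq was performed on ovaries from which granulosa cells had been removed by puncture, leaving a residual tissue of stroma, theca, vessels and immune cells, referred to as stroma. The mice were of the PRKO line (Pgrtm1Bwo), which lacks the progesterone receptor PGR from the germline on, and thus in every cell type. WT denotes PGR +/+ and KO denotes PGR -/- females, all 21 to 27 days old and given 5 IU PMSG and, 44 h later, 5 IU hCG (a stand-in for luteinising hormone), with ovaries taken 8 h post-hCG. There were 4 WT libraries (WT1 to WT4) and 3 KO libraries (KO2 to KO4), each a pool of tissue from 3 mice, and the comparison asks which of the signals depend on PGR in this tissue before follicles rupture. In such bulk tissue, fewer cells of a type and less RNA per cell cannot be told apart.

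Salmon had assigned 47372446 to 63416875 read pairs to transcripts in each library, so that 3 reads corresponded to 0.0482 to 0.0625 CPM (counts scaled to a common library size with TMM factors). *Pgr*, the gene targeted in these mice, was at 16.9 to 31.0 CPM in the WT libraries. In the KO libraries it was at 6.13 to 7.56 CPM, so the groups did not overlap. Its log2 fold change was -1.72 in edgeR, with an adjusted p of 0.0544. DESeq2 gave *Pgr* an adjusted p of 3.8e-15 with all libraries and of 1.69e-10 without KO2. Markers of theca and steroid synthesis summed to 10700 to 13700 CPM in the WT and to 9210 to 10500 CPM in the KO libraries. Over both groups, markers of stromal fibroblasts summed to 7570 to 11500 CPM and those of granulosa cells still to 2170 to 3410 CPM. Smooth muscle and pericyte markers summed to 1950 to 2560 CPM in the WT and 1490 to 1990 CPM in the KO libraries (7 of 7 lower in the KO). Endothelial markers summed to 865 to 997 CPM in the WT and 827 to 865 CPM in the KO libraries (7 of 8 lower). The part of these cell types in the member values was not tested. The 7 markers of all leukocytes summed to 46.9 to 70.9 CPM. Among the 57 members, the median log2 difference of a library from the WT mean was 0.34 in KO2, 0.09 in KO3 and -0.14 in KO4, against -0.04 to 0.07 in the WT libraries, while the median over all genes was within 0.01 of 0 in each. Each WT library is part of the WT mean, which draws the WT values towards 0, so they are not a like spread for the KO libraries. KO2 lay furthest from the WT mean, and KO4 lay outside the WT values on the other side. Results that rest on KO2 are given with and without it.

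The members that were highest in KO2 and next highest in KO3 included 3 chemokines that attract neutrophils (*Cxcl1*, *Cxcl2*, *Cxcl5*), 2 that attract monocytes (*Ccl2*, *Ccl7*), the T cell chemokine *Cxcl10* and *Il6*. The 250 bases before the start of the most abundant transcript of 6 of them are printed 5′ to 3′ on the gene's own strand, from GRCm39, to show what the sequences beside these starts hold. Capitals mark matches to the NF-kB consensus (10 bases, searched by name, overlapping matches merged) and to the AP-1 motif TGANTCA (7 bases), both searched on both strands.
Cxcl1 promoter, chr5:91038844-91039093, + strand: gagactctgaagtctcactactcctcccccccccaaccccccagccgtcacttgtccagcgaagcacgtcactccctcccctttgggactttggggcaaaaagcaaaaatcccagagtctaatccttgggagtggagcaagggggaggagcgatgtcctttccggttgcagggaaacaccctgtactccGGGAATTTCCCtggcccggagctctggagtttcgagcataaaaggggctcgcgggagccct
Cxcl2 promoter, chr5:91051480-91051729, + strand: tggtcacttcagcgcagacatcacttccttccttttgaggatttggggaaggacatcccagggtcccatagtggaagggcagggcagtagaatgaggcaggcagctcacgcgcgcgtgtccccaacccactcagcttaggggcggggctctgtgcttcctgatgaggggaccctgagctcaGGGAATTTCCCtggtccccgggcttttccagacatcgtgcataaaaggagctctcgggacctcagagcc
Cxcl10 promoter, chr5:92496749-92496998, - strand: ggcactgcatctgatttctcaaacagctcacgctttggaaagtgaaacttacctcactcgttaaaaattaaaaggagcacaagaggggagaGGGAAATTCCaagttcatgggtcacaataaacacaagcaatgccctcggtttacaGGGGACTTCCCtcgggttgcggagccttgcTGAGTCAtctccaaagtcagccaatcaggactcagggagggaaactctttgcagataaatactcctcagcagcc
Il6 promoter, chr5:30217862-30218111, + strand: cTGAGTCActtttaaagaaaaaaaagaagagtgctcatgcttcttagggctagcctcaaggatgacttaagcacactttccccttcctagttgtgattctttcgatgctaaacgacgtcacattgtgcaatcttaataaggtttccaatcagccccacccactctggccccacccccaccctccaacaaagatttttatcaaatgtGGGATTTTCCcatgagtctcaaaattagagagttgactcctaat
Ccl7 promoter, chr11:81936282-81936531, + strand: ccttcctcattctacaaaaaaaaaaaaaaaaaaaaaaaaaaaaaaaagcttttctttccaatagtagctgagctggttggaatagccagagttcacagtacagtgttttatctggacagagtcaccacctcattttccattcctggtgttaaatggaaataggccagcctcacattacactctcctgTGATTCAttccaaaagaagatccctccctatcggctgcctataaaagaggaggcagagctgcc
Ccl2 promoter, chr11:81926147-81926396, + strand: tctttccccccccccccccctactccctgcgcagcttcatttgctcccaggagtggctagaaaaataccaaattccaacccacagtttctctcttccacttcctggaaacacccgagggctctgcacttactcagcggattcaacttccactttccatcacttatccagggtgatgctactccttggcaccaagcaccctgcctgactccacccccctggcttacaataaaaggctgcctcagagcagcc

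An NF-kB match was found in the windows of *Cxcl1* (first base 61 before the start), *Cxcl2* (69 before), *Cxcl10* (at 159 and 104 before) and *Il6* (44 before), and in that of *Cxcl5* (108 before), which is not printed. *Ccl7* held an AP-1 match alone, 63 bases before its start, *Cxcl10* and *Il6* held an AP-1 match as well, and *Ccl2* held neither. In all, 10 of the 57 tested members (17.5%) had an NF-kB match, namely *Ccl5*, *Csf1*, *Cxcl1*, *Cxcl2*, *Cxcl5*, *Cxcl10*, *Il6*, *Il10*, *Il23a* and *Tnfsf15*, compared with 8.18% of 15691 tested coding genes. An AP-1 match was found for 7 members (12.3%), compared with 5.24% of all. Of the 15 members that were highest in KO2 and next in KO3, 5 had the NF-kB match (33.3%) and 4 the AP-1 match (26.7%), given without a test because the 15 were chosen by their values. Neither the C/EBP palindrome, found in 0.0956% of all windows, nor the full progesterone response element, found in 0.0765%, matched any member's window. A match describes letters in this window and not a bound site.

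The level of the members spanned more than 3 orders of magnitude per length. *Cxcl14*, a chemokine of epithelial and stromal cells, was the most abundant at 250 TPM (transcript level corrected for length and scaled to a common total, mean of 7 libraries, range 227 to 289), followed by *Cxcl12*, the ligand of *Cxcr4* and *Ackr3*, at 116 TPM (92.2 to 148). Their ranges did not overlap. *Ccl21a*, a ligand of *Ccr7* made by lymphatic vessels, was at 81.9 TPM (47.3 to 105), which overlapped with the range of *Cxcl12*. *Ccl21a* has near-identical copies in this genome, of which *Ccl21b* and *Ccl21d* had 0 reads, so how its reads were divided among them is uncertain. *Ccl11*, which attracts eosinophils, followed at 52.2 TPM (31.3 to 80.2). *Cxcl1*, *Tnfsf12*, *Ccl2*, *Ccl7*, *Csf1*, *Il33*, *Il6*, *Cx3cl1*, *Cxcl16* and *Ccl6* formed a middle group at 10.7 to 32.4 TPM, whose ranges over the libraries overlapped from each gene to the next.

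**Figure D1:**
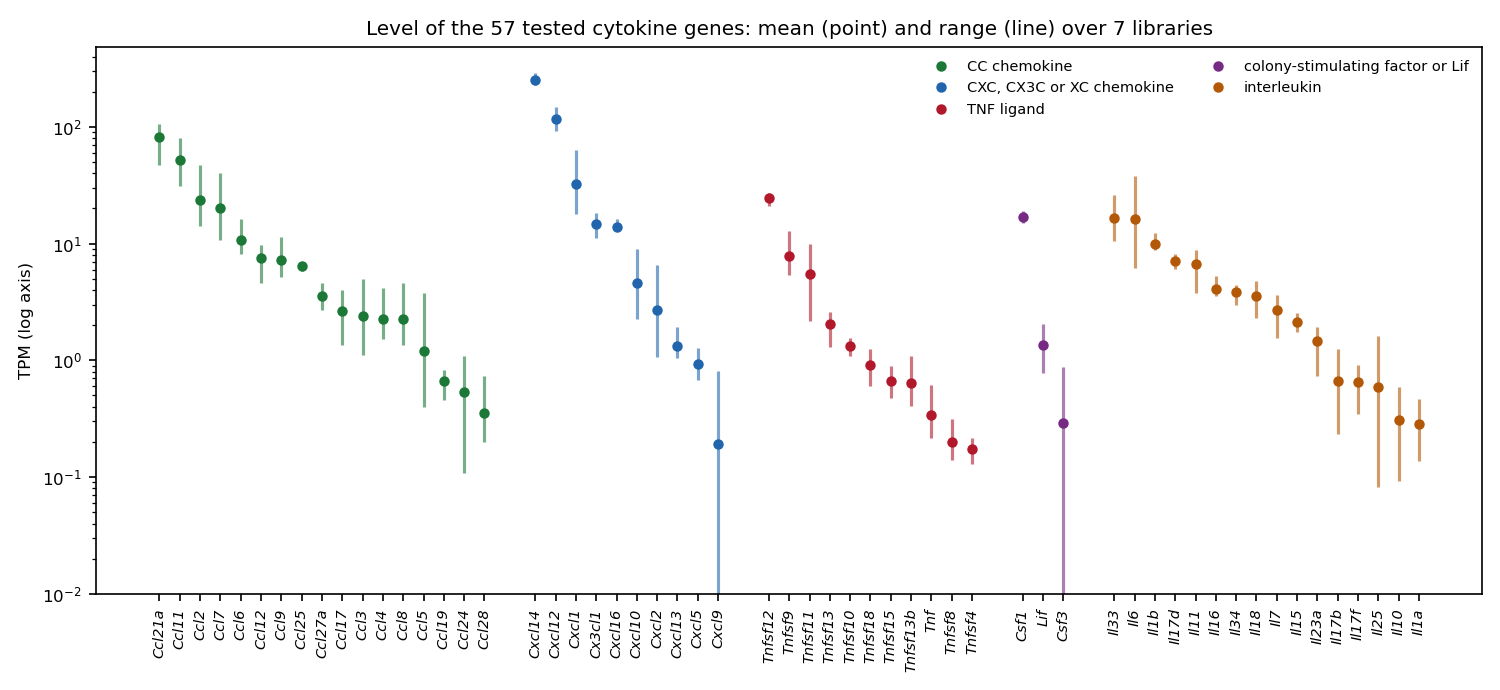
Level of each tested member in TPM on a log axis, grouped by family and ordered by the mean. Points give the mean and lines the lowest to highest of 7 libraries, from 250 TPM for *Cxcl14* down to 0.173 TPM for *Tnfsf4*. The lines of *Cxcl9* and *Csf3* run to the foot of the axis because 1 library of each had 0 reads.

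Among the interleukins, *Il33*, an alarm signal released from damaged barrier and stromal cells, was at 16.6 TPM and *Il6* at 16.2 TPM. *Il6* had the wider range, from 6.2 to 37.6 TPM. *Il1b* followed at 9.98 TPM (8.88 to 12.4), above the range of *Il17d* (7.13 TPM, 6.08 to 8.07), which overlapped with that of *Il11* (6.68 TPM, 3.74 to 8.74). The TNF ligands were led by *Tnfsf12*, which acts on *Tnfrsf12a*, at 24.8 TPM (21.2 to 27.2), above the range of *Tnfsf9* (7.79 TPM, 5.41 to 12.9), whose receptor *Tnfrsf9* costimulates T cells. *Tnfsf11* (5.5 TPM), the ligand that drives osteoclast formation, ranged from 2.17 to 10 TPM. *Tnfsf12*, *Tnfsf13* and the read-through gene *Tnfsfm13* overlap on the same strand, so their split of reads is uncertain. *Tnf* itself was at 0.339 TPM. *Csf1*, the survival factor of macrophages, was at 16.8 TPM (15.1 to 19.2), whereas *Lif* was at 1.35 TPM and *Csf3*, the growth factor of neutrophils, at 0.292 TPM.

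Several well-known cytokines of T cells and of inflammation were not detectable at this depth. *Ccl1*, *Ccl20*, *Ccl21b*, *Ccl21d*, *Ccl26*, *Il2*, *Il3*, *Il9*, *Il22b*, *Il36a* and *Il36b* had 0 reads in each library, which allows up to 3 reads per library, or 0.0482 to 0.0625 CPM. *Il4* and *Csf2* had 3 reads each over the 7 libraries, and *Il17a*, *Il21* and *Il22* had 1 read each. The 23 members with reads that were not tested reached at most 17 reads in any library, that of *Ccl22* in KO2.

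No member was called in the KO against the WT by edgeR. A call required an adjusted p no higher than 0.05 together with a log2 fold change of 0.5 or more in either direction. At these thresholds, 1 of 19233 genes was called higher (0.0052%) and 1 lower (0.0052%) in the KO. Even *Pgr* was not called by edgeR (adjusted p = 0.0544), so the lack of a call does not show that a member was unchanged. At an unadjusted p of at most 0.05, 8 of 57 members (14%) were higher in the KO, compared with 3.84% of all genes tested, and 4 (7.02%) were lower, compared with 5.1%. The higher members were *Ccl2*, *Ccl3*, *Ccl7*, *Cxcl1*, *Cxcl12*, *Il25*, *Tnfsf8* and *Tnfsf9*, and the lower members *Ccl17*, *Ccl28*, *Il17b* and *Tnfsf11*. Of these, *Il25* passed the edgeR filter on low counts only through the KO libraries, so it had to differ, here and in the counts below. *Il17b* reached the level of that filter in WT2 to WT4, which sufficed, and among the KO libraries in KO2 alone. Without KO2 it passed only through the WT libraries, so in that fit *Il17b* had to be lower in the KO. The median log2 fold change of the 57 members was 0.19, with 37 above 0 and 20 below, against -0.001 over all genes. DESeq2, the tool of the study, called *Il25* higher and *Ccl17* lower among the 49 members to which it gave an adjusted p, at the same thresholds that called 0.314% of 17517 genes higher and 0.502% lower. Limma-voom called none. In 3 members all KO libraries lay above all WT libraries (5.26%, compared with 3.93% of all genes) and in 3 members all lay below (5.26%, compared with 5.12%), so groups that did not overlap were about as frequent among the members as among all genes.

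*Cxcl12* (chr6:117144945-117158328, + strand) was the most abundant member whose KO and WT libraries did not overlap. Its level was 223, 181, 203 and 185 CPM in WT1 to WT4 and 274, 256 and 229 CPM in KO2 to KO4. The highest WT library, WT1, and the lowest KO library, KO4, lay close to each other. The KO mean was 1.28-fold the WT mean (253 ± 23.0 CPM, SD, n = 3, against 198 ± 19.1 CPM, SD, n = 4), with a log2 fold change of 0.35 ± 0.0908 (SE) and an adjusted p of 0.314 in edgeR. DESeq2 gave an adjusted p of 0.0313, but the fold change stayed under the 0.5 required, and 1.38% of all genes passed this p at any fold, against 3 of 49 members (*Cxcl12*, *Ccl17*, *Il25*). Without KO2 the log2 fold change was 0.29 ± 0.0999 (edgeR adjusted p = 0.786). Of its 4 transcripts, Cxcl12-203 had 1.53 times as many reads in the KO (113 ± 19.7 against 74.2 ± 10.3 CPM, SD), while Cxcl12-201, the longest, had 1.01 times (70.7 ± 6.64 against 70.1 ± 8.51 CPM, SD), and these transcript values were not tested.

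With all libraries, the 2 receptors of *Cxcl12* did not share one pattern. *Cxcr4*, which signals through G proteins, was lower in each KO library, at 29.9, 50.0, 34.6 and 57.2 CPM in the WT and 23.8, 21.4 and 20.7 CPM in the KO. The groups did not overlap, and the log2 fold change was -0.97 ± 0.21 (SE) with an adjusted p of 0.236 in edgeR and of 0.000428 in DESeq2, which called it. Without KO2 it was -1.03 in edgeR, and DESeq2 still called it (adjusted p = 0.00256). The study reported a lower *Cxcr4* level in granulosa cells of the KO as well, and it removed stroma genes with a much higher granulosa cell level. That filter was not applied here, and the part of residual granulosa cells in the *Cxcr4* values was not tested. *Ackr3*, the scavenging receptor, was at 36.2 ± 2.27 CPM in the WT and 33.8 ± 3.88 CPM in the KO (SD, log2 fold change -0.10 ± 0.0849, SE). Without KO2, *Ackr3* as well as *Cxcr4* was lower in the KO at an unadjusted p of at most 0.05 in edgeR.

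*Ccl17* (chr8:95534358-95538664, + strand), a ligand of *Ccr4* on T cells that is made by dendritic cells, was the member with the lowest p in edgeR, while in DESeq2 *Il25* and *Cxcl12* had lower ones. It stood at 0.6, 0.83, 0.74 and 0.88 CPM in WT1 to WT4 and at 0.36, 0.35 and 0.28 CPM in KO2 to KO4, from 31 to 55 reads per WT library and 16 to 21 reads per KO library. All KO libraries were below all WT libraries, at 43.4% of the WT mean (log2 fold change -1.21 ± 0.227, SE). The adjusted p was 0.179 in edgeR and 0.0325 in DESeq2. Leaving out KO2 gave -1.28 ± 0.279 in edgeR, with an adjusted p of 0.54 there and of 0.233 in DESeq2, so the call of DESeq2 was lost. Its receptor *Ccr4* was too low to be tested, at 0.0544 CPM in the WT and 0.0381 CPM in the KO. The 6 markers of dendritic cells summed to 35.5 to 42.5 CPM in the WT and 35.7 to 38.1 CPM in the KO libraries. *Cx3cl1*, which lies 35.7 kb before *Ccl17* on the same chromosome and is tethered to the surface of endothelial cells, was at 29.0 ± 2.85 and 30.2 ± 4.2 CPM (SD, log2 fold change 0.06 ± 0.108, SE).

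*Il25* (chr14:55170152-55173294, + strand), a member of the interleukin 17 family that drives type II immunity, had the largest fold change of the members. It rested on few reads, 6, 7, 4 and 3 in WT1 to WT4 and 56, 10 and 49 in KO2 to KO4, or 20 reads in the WT and 115 in the KO. In CPM these were 0.12, 0.14, 0.07 and 0.05 in the WT and 0.97, 0.21 and 0.85 in the KO. KO2 and KO4 were far above the WT, and KO3 only slightly. *Il25* passed the edgeR filter on low counts only through the KO libraries, so as a tested member it had to be higher there. The log2 fold change was 2.88 ± 0.555 (SE), with an adjusted p of 0.186 in edgeR, of 0.0467 in edgeR without the filter on low counts and of 0.00155 in DESeq2. Without KO2 it was 2.53 ± 0.605 with an adjusted p of 0.62 in edgeR and of 0.154 in DESeq2, so the call of DESeq2 was lost here too. *Il25* overlaps the long noncoding gene *Gm62784* on the opposite strand, and whether Salmon used the strand of the reads is not given in the sources used here. *Il17b*, a relative that binds the same receptor, differed in the other direction, at 0.15, 0.36, 0.30 and 0.43 CPM in the WT and 0.21, 0.10 and 0.09 CPM in the KO (log2 fold change -1.21 ± 0.445, SE, edgeR adjusted p = 0.468). The WT and KO ranges of *Il17b* overlapped through WT1 and KO2. Their receptor chain *Il17rb* was at 1.31 ± 0.194 and 1.27 ± 0.0974 CPM (SD).

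**Figure D2:**
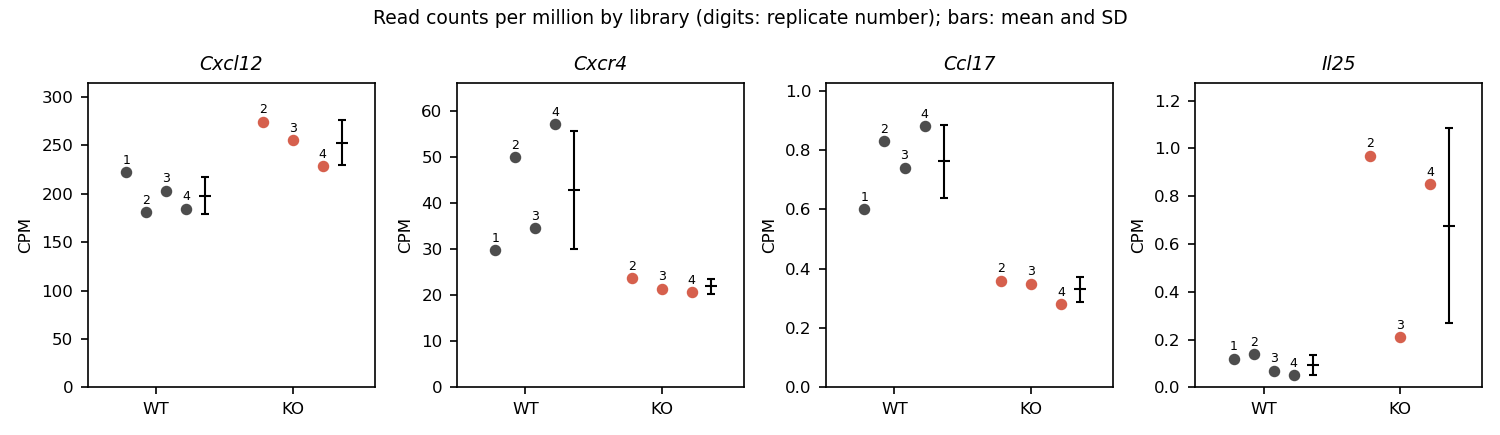
CPM in each library of *Cxcl12*, its receptor *Cxcr4*, *Ccl17* and *Il25*, with the replicate number beside each point and the mean ± SD of the group as a bar on a linear axis from 0. The KO libraries lie above the WT libraries for *Cxcl12* and *Il25* and below them for *Cxcr4* and *Ccl17*, with KO3 near the WT for *Il25* at 0.21 CPM.

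3 further members had groups that did not overlap, and all were at low levels. *Ccl28*, an epithelial chemokine and ligand of *Ccr10*, was at 0.67, 0.79, 1.05 and 1.74 CPM in the WT and 0.61, 0.48 and 0.6 CPM in the KO (log2 fold change -0.92 ± 0.336, SE, edgeR adjusted p = 0.466). Its fold change depended on WT4, without which it was -0.56. *Tnfsf10*, which triggers cell death through *Tnfrsf10b*, was at 3.99 to 4.44 CPM in the WT and 3.49 to 3.95 CPM in the KO (log2 fold change -0.18 ± 0.108, SE). *Tnfsf8*, the ligand of *Tnfrsf8* on lymphocytes, was at 0.38, 0.44, 0.34 and 0.37 CPM in the WT and 0.78, 0.65 and 0.47 CPM in the KO (log2 fold change 0.72 ± 0.237, SE, edgeR adjusted p = 0.399). The markers of the surface epithelium summed to 25.2 to 55.4 CPM in the WT and 16.8 to 30.7 CPM in the KO, and their part in the *Ccl28* values was not tested.

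In KO2, 32 of the 57 tested members (56.1%) had their highest value of the 7 libraries, whereas KO2 was the highest library for 14.9% of all genes tested. By family these were 10 of 17 CC chemokines, 8 of 10 CXC, CX3C or XC chemokines, 8 of 16 interleukins, 4 of 11 TNF ligands, and *Csf3* and *Lif*. At a margin of 1.5 times the next highest library, KO2 stood out in 9 members (15.8%), compared with 0.536% of all genes. These were *Ccl3*, *Ccl5*, *Ccl6*, *Cxcl2*, *Cxcl9*, *Cxcl10*, *Il6*, *Tnf* and *Csf3*. At a margin of 2 they were *Ccl5*, *Cxcl2*, *Cxcl9* and *Csf3* (7.02%), among 19 genes of all (0.0988%). KO2 was the lowest library by a margin of 1.5 in *Tnfsf11* alone (1.75%, compared with 0.764%). KO3 often held the next place, since KO2 was highest and KO3 next in 15 members (26.3%), compared with 4.54% of all genes. The 15 were *Ccl2*, *Ccl3*, *Ccl4*, *Ccl6*, *Ccl7*, *Cxcl1*, *Cxcl2*, *Cxcl5*, *Cxcl10*, *Cxcl12*, *Il6*, *Il16*, *Tnfsf8*, *Tnfsf9* and *Tnfsf13*. These counts describe the library and were not tested, because KO2 was considered apart with earlier results of these data known.

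**Figure D3:**
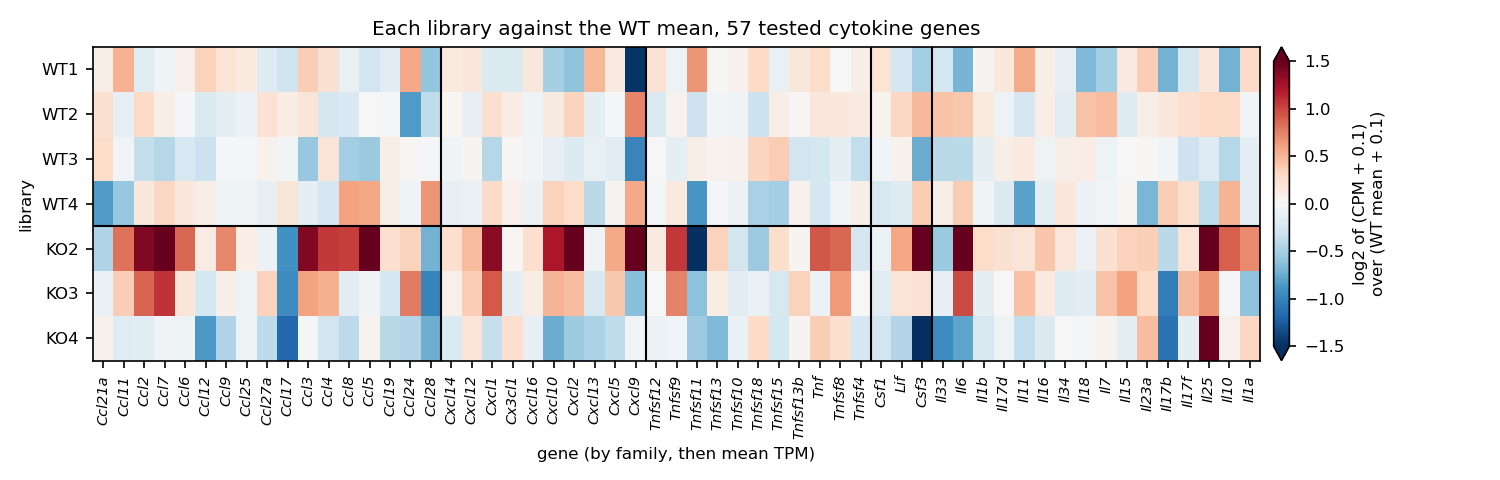
Log2 ratio of each library's CPM to the WT mean, with 0.1 added to both, for the 57 tested members (columns, by family and level). Red is above and blue below the WT mean, the colour scale ends at 1.5 in either direction, and the KO2 row is the reddest, with a median of 0.34 against -0.14 in the KO4 row.

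*Il6*, which activates STAT3 through *Il6ra* and *Il6st*, was at 4.63, 10.04, 5.71 and 9.89 CPM in WT1 to WT4 and at 26.6, 15.1 and 4.33 CPM in KO2 to KO4. KO2 was 3.51 times the WT mean, whereas KO4 was 0.572 times it and the lowest of all libraries. The log2 fold change was 1.02 ± 0.51 (SE) with all KO libraries (edgeR adjusted p = 0.598) and 0.36 ± 0.487 without KO2 (adjusted p = 0.975). The KO values thus straddled the whole WT range, and no difference between the genotypes was detectable beyond the spread of the KO libraries.

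The neutrophil-attracting ligands of *Cxcr2* followed the same order of libraries. *Cxcl1* was at 11.9, 16.3, 10.3 and 16.9 CPM in the WT and 35.4, 26.3 and 10.8 CPM in the KO (log2 fold change 0.81 ± 0.343, SE, edgeR adjusted p = 0.539). *Cxcl2* was at 0.86, 1.75, 1.17 and 1.67 CPM in the WT and 4.64, 1.92 and 0.91 CPM in the KO, so that KO2 was 2.42 times the next highest library. In both genes KO4 lay within the WT range, and without KO2 their log2 fold changes were 0.42 ± 0.336 and 0.04 ± 0.373 (SE). The genes lie 12.6 kb apart on chromosome 5. *Cxcl5*, of the same cluster and receptor, was at 0.71 to 0.9 CPM in the WT and at 1.25, 1.1 and 0.6 CPM in the KO. *Cxcr2* itself, carried by neutrophils, was at 1.5 ± 0.266 CPM in the WT and 1.27 ± 0.349 CPM in the KO (SD).

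*Ccl2* and *Ccl7*, ligands of *Ccr2* that recruit monocytes, showed this order too. *Ccl2* was at 6.94, 9.72, 6.14 and 8.84 CPM in the WT and 20.9, 14.6 and 7.04 CPM in the KO (log2 fold change 0.84 ± 0.316, SE, edgeR adjusted p = 0.474). *Ccl7* was at 5.51, 6.16, 4.29 and 7.17 CPM in the WT and 16.8, 12.4 and 5.55 CPM in the KO (log2 fold change 1.0 ± 0.323, SE, adjusted p = 0.397). Without KO2 the log2 fold changes were 0.45 ± 0.291 and 0.63 ± 0.309, with unadjusted p of 0.161 and 0.0785. *Ccl2* and *Ccl7* begin a cluster on chromosome 11 in which each gene starts 10.1 to 44.0 kb after the one before it as far as *Ccl8*, and the cluster did not move as a block. *Ccl11*, next in it, was at 49.1, 35.9 and 24.5 CPM in the KO against 18.7 to 40.0 CPM in the WT, and *Ccl12*, after *Ccl11*, was at 2.07, 1.56 and 1.0 CPM against 1.49 to 2.44 CPM. *Ccr2* was at 3.09 ± 0.552 CPM in the WT and 2.83 ± 1.29 CPM in the KO (SD).

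Other inflammatory chemokines were highest in KO2 with KO3 closer to the WT. *Cxcl10*, a ligand of *Cxcr3* that is known as a target of interferons, was at 1.69, 2.68, 2.22 and 3.12 CPM in the WT and 5.78, 3.5 and 1.41 CPM in the KO, and it lies within *Art3* on the opposite strand. *Cxcl9*, which shares that receptor, was at 0, 0.36, 0.04 and 0.31 CPM in the WT and 1.51, 0.08 and 0.17 CPM in the KO, where KO2 held 87 of 140 reads. *Ccl5*, which attracts T cells, had 51 of its 111 reads in KO2 (0.89 CPM, against 0.09 to 0.32 CPM in the other libraries). Without KO2 the log2 fold changes of *Cxcl9*, *Ccl5* and *Cxcl10* went from 1.76, 1.18 and 0.55 to -0.42, -0.04 and 0.01. *Ccl3*, made by activated macrophages, was at 0.43 to 0.92 CPM in the WT and 1.96, 1.1 and 0.67 CPM in the KO, and its neighbour *Ccl4* at 0.48 to 0.71 CPM and 1.34, 0.9 and 0.47 CPM. *Ccl6*, made by macrophages, was at 4.91 to 6.53 CPM in the WT and 10.7, 6.65 and 5.55 CPM in the KO.

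**Figure D4:**
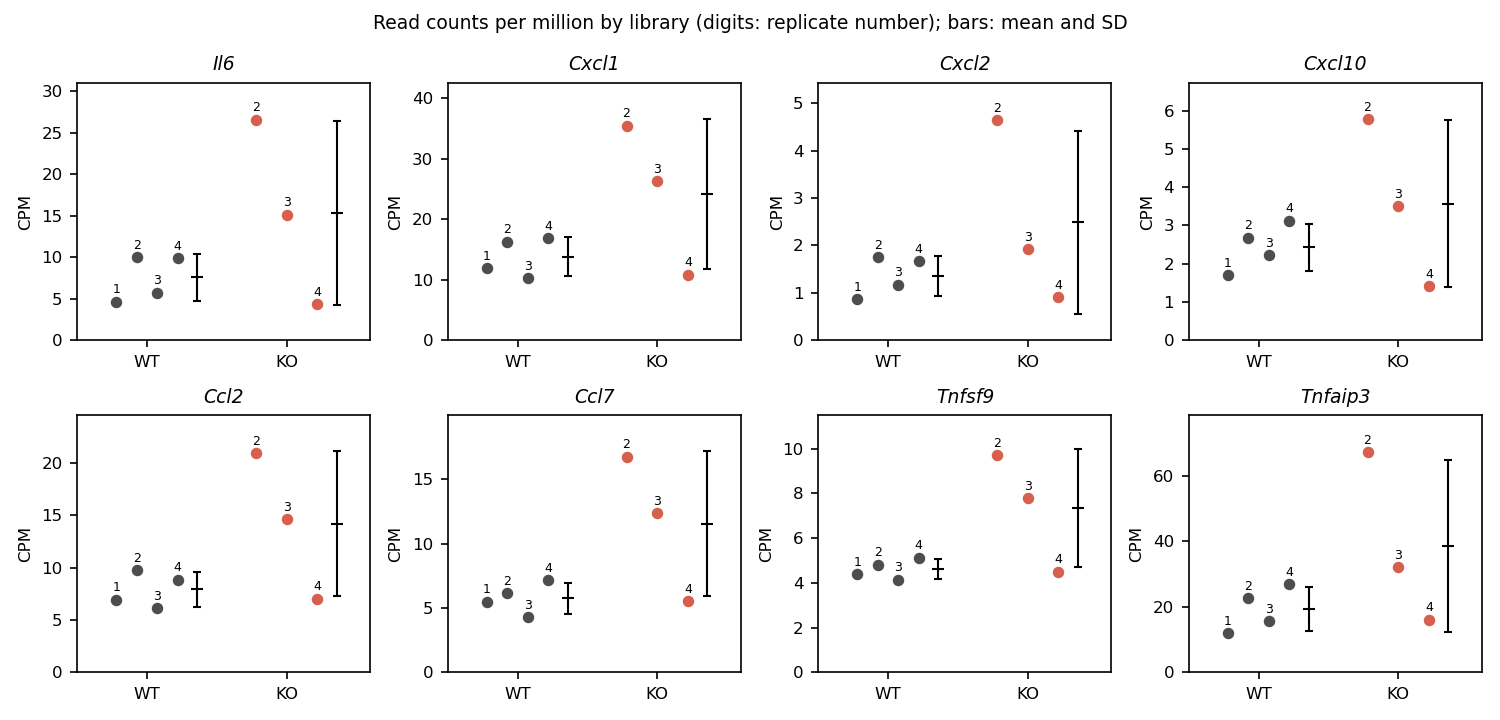
CPM in each library of *Il6*, *Cxcl1*, *Cxcl2*, *Cxcl10*, *Ccl2*, *Ccl7*, *Tnfsf9* and *Tnfaip3*, a feedback inhibitor of NF-kB, with the replicate number beside each point and the mean ± SD as a bar on linear axes from 0. KO2 is highest and KO3 next in each panel, and KO4 lies among or below the WT libraries. In each panel WT2 and WT4 lie above WT1 and WT3. The 7 members drawn are those with this order among the 15 with KO2 highest and KO3 next, so their choice fixed both orders.

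The WT libraries also differed among themselves in these genes. Both WT2 and WT4 lay above both WT1 and WT3 in 7 of the 15 members that were highest in KO2 and next in KO3, namely *Ccl2*, *Ccl7*, *Cxcl1*, *Cxcl2*, *Cxcl10*, *Il6* and *Tnfsf9*. Over all tested members this order was found in 17 (29.8%), compared with 22% of all genes tested. Among the markers of other cell types, the surface epithelium markers had it in 7 of 7, with sums of 27.1, 55.4, 25.2 and 47.6 CPM in WT1 to WT4 and of 30.7, 16.8 and 23.1 CPM in KO2 to KO4. The epithelial markers were thus highest in WT2 and WT4 and not in KO2, and their part in the cytokine values was not tested.

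*Tnfsf9* was at 4.38, 4.81, 4.15 and 5.13 CPM in the WT and 9.71, 7.79 and 4.5 CPM in the KO (log2 fold change 0.67 ± 0.227, SE, edgeR adjusted p = 0.42). KO4 lay among the WT libraries. Without KO2 the log2 fold change was 0.41 ± 0.213. Its receptor *Tnfrsf9* did not follow it, at 22.2, 38.7, 32.7 and 38.0 CPM in the WT and 28.2, 43.5 and 58.7 CPM in the KO, where KO4 was highest. *Tnf* was at 0.21 to 0.35 CPM in the WT and 0.61, 0.25 and 0.38 CPM in the KO, and its receptor *Tnfrsf1a* at 271 ± 30.3 and 260.0 ± 6.29 CPM (SD).

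*Tnfsf11* went the other way, at 15.1, 7.65, 10.2 and 5.14 CPM in WT1 to WT4 and 3.06, 6.19 and 6.47 CPM in KO2 to KO4. The WT libraries spanned a wide range whose lowest value, in WT4, was below KO3 and KO4. The log2 fold change was -0.86 ± 0.373 (SE) with an adjusted p of 0.547 in edgeR, and -0.59 ± 0.373 without KO2. Its receptor *Tnfrsf11a* was at 2.56 to 3.33 CPM in the WT and 2.31 to 2.38 CPM in the KO, and the decoy receptor *Tnfrsf11b* at 9.22 ± 3.41 and 10.8 ± 4.11 CPM (SD). *Il33* was also lower on average in the KO, at 25.1, 40.4, 22.7 and 32.0 CPM in the WT and 20.4, 27.5 and 15.6 CPM in the KO (log2 fold change -0.51 ± 0.231, SE, edgeR adjusted p = 0.568), while its receptor *Il1rl1* was at 3.06 ± 0.668 and 2.98 ± 0.719 CPM (SD).

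Other abundant members had small fold changes. *Cxcl14* was at 249 to 301 CPM in the WT and 323, 286 and 233 CPM in the KO (log2 fold change 0.05 ± 0.112, SE). *Ccl21a* was at 21.6 to 47.1 CPM in the WT and 28.5 to 40.7 CPM in the KO (-0.15 ± 0.246, SE). *Csf1* was at 47.7, 43.0, 40.3 and 35.2 CPM in the WT and 39.1, 36.5 and 34 CPM in the KO (-0.18 ± 0.101, SE), and its receptor *Csf1r* at 26.4 ± 2.55 and 27.1 ± 3.14 CPM (SD). *Cxcl16*, *Tnfsf12*, *Tnfsf13*, *Il17d*, *Il11* and *Il1b* had log2 fold changes between -0.02 and 0.13, with adjusted p of 0.842 to 0.996 in edgeR. *Lif* had 0.19 ± 0.25 (SE), and *Csf3* had 0 reads in KO4 and 42 of its 94 reads in KO2.

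Without KO2, 5 members had an unadjusted p of at most 0.05 in edgeR. These were *Cxcl12* and *Il25*, higher in the KO (3.51%, compared with 2.43% of 19491 genes), and *Ccl17*, *Ccl28* and *Il17b*, lower in the KO (5.26% of the 57 members, compared with 3.55%). All 5 were also among the 12 found with all libraries. In this fit *Il25* passed the filter on low counts only through the KO libraries and *Il17b* only through the WT libraries, so both had to differ. The median log2 fold change over the members was -0.02 in place of 0.19. No member was called by edgeR, at which 0% of all genes were called higher and 0.00513% lower, or by DESeq2, which called 0.0919% higher and 0.27% lower. The log2 fold changes of *Cxcl9*, *Csf3* and *Ccl5* turned negative, while those of *Ccl17*, *Ccl28* and *Cxcl12* kept their direction and nearly their size. KO2 was not alone in its weight, because leaving out KO4, the library with the lowest median, gave 20 members at this p, and leaving out KO3 gave 10.

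**Figure D5:**
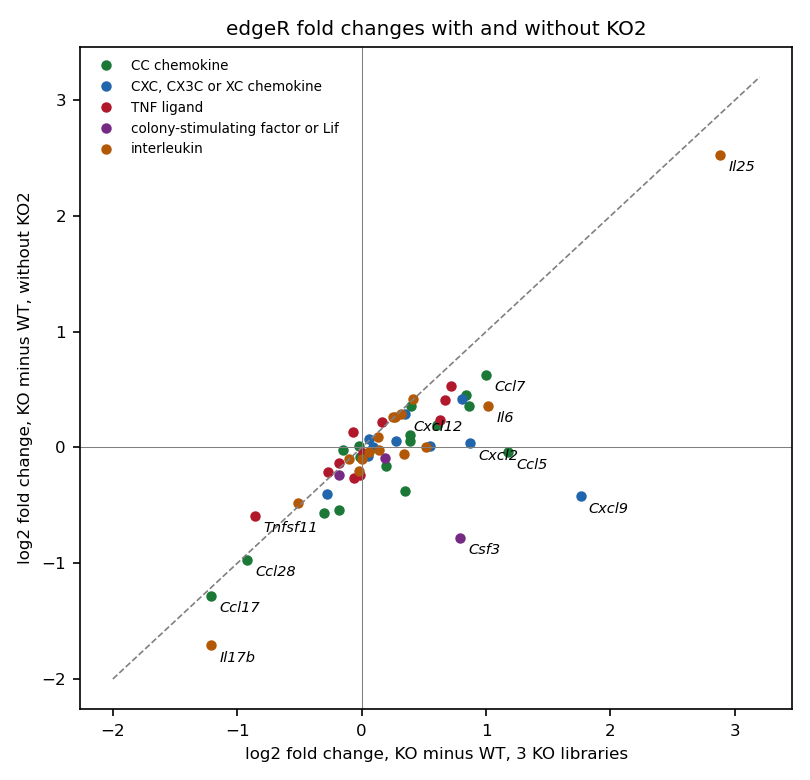
Log2 fold change (KO minus WT, edgeR) of the 57 tested members with all 3 KO libraries (horizontal) and without KO2 (vertical), coloured by family, with the line of equal values dashed. Points below the line lost height without KO2, as in *Cxcl9* (1.76 to -0.42) and *Il6* (1.02 to 0.36), while *Ccl17* (-1.21 to -1.28) and *Ccl28* (-0.92 to -0.97) stayed near it.

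Of 88 genes for chemokine, interleukin, colony-stimulating factor and TNF receptors, 77 were tested, and their median log2 fold change was -0.04, compared with 0.19 for the members. None was called by edgeR. An unadjusted p of at most 0.05 was found for 1 receptor higher in the KO (1.3%, *Csf2rb*, a shared signalling chain) and 5 lower (6.49%, *Ackr2*, *Cxcr4*, *Il15ra*, *Il1rl2* and *Edar*), compared with 3.84% and 5.1% of all genes. *Ackr2*, which removes inflammatory CC chemokines, was at 2.63, 2.62, 2.63 and 2.14 CPM in the WT and 1.75, 1.94 and 1.93 CPM in the KO (log2 fold change -0.42 ± 0.136, SE, edgeR adjusted p = 0.399). *Il15ra*, which presents *Il15*, was at 8.19 to 9.53 CPM in the WT and 6.30 to 6.77 CPM in the KO (-0.41 ± 0.0907, SE, edgeR adjusted p = 0.237, DESeq2 adjusted p = 0.0136), and *Il15* itself was at 1.26 ± 0.13 and 1.58 ± 0.41 CPM (SD). *Il1rl2*, a receptor of the interleukin 36 group, was at 37.6 to 42.5 CPM in the WT and 29.9 to 36 CPM in the KO (-0.29 ± 0.0776, SE, adjusted p = 0.315). *Il36a* and *Il36b*, which encode ligands of it, had 0 reads, while *Il36g* lay outside the symbol rule and was not read. *Edar*, a receptor of skin appendages, was at 0.38 to 1.11 and 0.19 to 0.47 CPM. In 6 of the 77 receptors all KO libraries were below all WT libraries (7.79%, compared with 5.12% of all genes). Without KO2, 2 of 78 receptors were higher at such a p (2.56%, compared with 2.43% of all genes) and 9 were lower (11.5%, compared with 3.55%). The latter included 5 of 16 chemokine receptors (31.2%), namely *Ccr2*, *Cxcr4*, *Cxcr6*, *Ackr2* and *Ackr3*, with adjusted p of 0.682 to 0.831 in edgeR. The chemokine receptors summed to 89.0 to 114 CPM in the WT and to 86.2, 70.0 and 67.1 CPM in KO2, KO3 and KO4, and *Cxcr4* and *Ackr3* made up most of these sums. KO2 was the highest library in 24 of the 77 (31.2%, compared with 14.9% of all genes) and stood out by 1.5 times in *Ccr7*, *Il10ra* and *Il18rap* (3.9%, compared with 0.536%), which leukocytes carry. The receptor chains that answer *Il6*, *Il11* and *Lif* were abundant in both groups, with *Il6st* at 378 ± 45.9 CPM in the WT and 343 ± 3.76 CPM in the KO and *Lifr* at 102 ± 16.4 and 90 ± 8.42 CPM (SD).

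Genes known to be induced by NF-kB or STAT3, the factors that act before and after many of these cytokines, were read beside the members from a list of 22. In KO2, 15 of them (68.2%, compared with 14.9% of all genes) had their highest value, and in 8 (36.4%, compared with 4.54%) KO3 was next. *Socs3*, a feedback inhibitor of STAT3, was at 235, 195, 181 and 216 CPM in the WT and 392, 281 and 216 CPM in the KO. *Tnfaip3* was at 12.1, 22.7, 15.7 and 26.9 CPM in the WT and 67.4, 32.1 and 16.2 CPM in the KO, and *Sele*, an adhesion molecule of activated endothelium, at 12.5 to 15.9 CPM and 33.9, 22.2 and 12.4 CPM. The order of KO libraries was thus that of *Il6* and *Cxcl1*. With all libraries, 6 of the 22 had an unadjusted p of at most 0.05 and were higher in the KO (27.3%: *Tnfaip3*, *Sele*, *Ptx3*, *Nfkbiz*, *Zc3h12a* and *Socs3*) and 1 was lower (4.55%: *Vcam1*), compared with 3.84% and 5.1% of all genes, with adjusted p of 0.386 to 0.552 in edgeR and no call by either tool. Without KO2 none of the 6 had such a p. In that fit 0 of the 22 were higher at such a p and 2 were lower (9.09%, compared with 3.55% of all genes). The median log2 fold change of the list went from 0.142 to -0.0105.

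Markers of several leukocyte types were also high in KO2, though not those of dendritic cells and mast cells, and so were the immediate early genes. All 7 markers shared by leukocytes were highest in KO2, with sums of 50.8 to 59.3 CPM in the WT, 70.9 CPM in KO2, 50.5 CPM in KO3 and 46.9 CPM in KO4. The 14 neutrophil markers summed to 15.3 to 17.7 CPM in the WT, 24.5 CPM in KO2, 15.9 CPM in KO3 and 15.4 CPM in KO4, and the defining markers *S100a8*, *S100a9* and *Ly6g* were at or under 0.9 CPM in every library. The 14 macrophage and monocyte markers summed to 241 to 300 CPM in the WT and to 321, 264 and 229 CPM in KO2, KO3 and KO4, and the 10 T cell markers to 4.31 to 5.42 CPM and to 6.81, 5.23 and 4.33 CPM. The NK cell markers summed to 0.674 to 0.914 CPM in the WT and to 2.26, 0.792 and 1.16 CPM in KO2, KO3 and KO4. The 6 B cell markers summed to 4.87 to 5.6 CPM in the WT and 6.18 CPM in KO2. KO2 was highest in only 2 of these 6 (33.3%, compared with 14.9% of all genes). The dendritic cell markers, at 36.5 CPM in KO2, and the 6 mast cell markers, at 3.13 CPM in KO2 and 2.78 to 4.73 CPM in the WT, lay within the WT range. In the neutrophil, macrophage and T cell sums KO3 was within the WT range, and for the shared leukocyte markers just under it, although it was above the WT in *Il6*, *Cxcl1*, *Ccl2* and *Ccl7*. Of 12 immediate early genes, which respond within minutes to many stimuli, 11 were highest in KO2 (91.7%, compared with 14.9% of all genes) and 8 of these had KO3 next (66.7%, compared with 4.54%), with sums of 2020 to 2560 CPM in the WT and of 3680, 3070 and 2440 CPM in KO2, KO3 and KO4. Between the genotypes, 8 of the 12 were higher in the KO at an unadjusted p of at most 0.05 (66.7%, compared with 3.84% of all genes) and 5 still were without KO2 (41.7%, compared with 2.43%). None was called by edgeR. DESeq2 called *Egr2*, *Egr3* and *Ier3* higher (25%, compared with 0.314%), in which all KO libraries lay above all WT libraries, and *Egr3* alone without KO2 (8.33%, compared with 0.0919%). The part of leukocyte content and of the immediate early response in the cytokine values was not tested.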

How the data were processed

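RNA was measured in 7 libraries of granulosa cell-depleted ovary, 4 WT and 3 KO. Sample titles gave the group and replicate number of each library. Per the labels, the libraries were stranded mRNA libraries read as 100 bp pairs. Expected counts per transcript, TPM and effective lengths were deposited by the authors as Salmon wrote them (GENCODE M26, GRCm39, Salmon version not given in the sources used here). The TPM of the authors, scaled for transcript length and depth, served for comparing levels between genes only, and effective lengths for the offsets of one alternative.

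Transcripts were matched to GENCODE M39 (GRCm39) by Ensembl identifier, 137570 of 139225 (98.8%). Expected counts were summed per gene and rounded. Differential expression was tested over 19233 genes with edgeR 4.0.16 in R 4.3.3 (TMM, filterByExpr, quasi-likelihood, two-sided, Benjamini-Hochberg), and a gene was called, as in the study, at an adjusted p no higher than 0.05 with a log2 fold change of 0.5 or more in either direction. Nothing names the cultures or animals beyond pools of 3 mice, so p-values measure the spread between pools. The common biological coefficient of variation was 0.127. Alternatives were DESeq2 1.42.0, limma-voom (limma 3.58.1), median-of-ratios factors, transcript length offsets, dropping the filter or requiring 10 counts per library, a replicate block and leaving out each library, and DESeq2 without KO2 was added after the results were seen. Floors of 3 counts cover counting error only. The pipeline was tested on simulated data. Promoter windows were read from GRCm39.

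The members, the lists and the motifs were chosen with earlier results of these data known. Named genes were the members with an unadjusted p of at most 0.05, the 5 most abundant of each family, a set of well-known cytokines (*Tnf*, *Csf1*, *Csf2*, *Csf3*, *Lif*, *Il6*, *Il4*, *Il2*, *Il1b*, *Tnfsf11*), up to 12 members in which KO2 was 1.5 times beyond the next library, receptors and inducible genes with such a p or such a KO2, the receptors of named members where reported here, and *Pgr*. Neighbours in gene clusters and members of interest for their lack of difference were named after their values were seen.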

Additional observations from a re-analysis of the deposited data

Results flagged for a closer look

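For *Cxcl16*, a chemokine that binds *Cxcr6*, WT1 lay apart from the other WT libraries. It was at 17.6 CPM in WT1 and at 14.9, 15.2 and 14.7 CPM in WT2 to WT4, and the gap to the nearest library was 0.833 of the whole range, above Dixon's 95% critical value for 4 samples. The KO libraries, at 18.6, 16.9 and 14.4 CPM, lay above, within and below the WT range. It was the only one of 34 named members tested in this way that passed, and chance passes about 1 in 20 groups.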

How the results depend on the processing

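The number of called members was 0 in edgeR, 2 with DESeq2 (*Il25* and *Ccl17*) and 1 with no filter on low counts (*Il25*), and 0 when any library was left out. Members with an unadjusted p of at most 0.05 numbered 12, from 5 (without KO2) to 20 (without KO4) when libraries were left out in turn, and 6 with DESeq2 without KO2. Called receptors numbered 0 in edgeR, 1 with DESeq2 and 1 with DESeq2 without KO2 (*Cxcr4*). Receptors with such a p numbered 6, from 6 to 11 when libraries were left out (10 without WT4, 11 without KO2), 10 with DESeq2 without KO2 and 10 with a replicate block. Members in which KO2 stood out numbered 9, and 4 at a margin of 2. The median log2 fold change of the members was -0.02 to 0.33 over the libraries left out.

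Same-numbered WT and KO libraries come from different mice, and the numbers were not taken to pair the samples. The correlations of their deviations from the group means were 0.023, 0.156 and 0.126 for replicates 2, 3 and 4. Differently numbered libraries were not correlated for comparison, so these values cannot decide whether the numbers pair the samples. With the replicate block, 0 members were called and 9 had an unadjusted p of at most 0.05, of which 7 were among the 12.

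Some fold changes turned sign, and the cause was not tested beyond what leaving out a library shows. With DESeq2 without KO2 the log2 fold changes were -0.02 for *Ccl5*, -0.06 for *Cxcl14*, -0.44 for *Cxcl9*, -0.05 for *Tnfsf12*, -0.08 for *Lif*, -0.72 for *Csf3* and -0.04 for *Il17d*. Limma-voom gave -0.56 for *Csf3*, the replicate block -0.01 for *Cx3cl1* and transcript length offsets 0.0 for *Il1b*. Over the libraries left out in turn, the ranges were -0.04 to 1.54 for *Ccl5*, -0.07 to 0.17 for *Cxcl14*, -0.05 to 0.15 for *Cx3cl1*, -0.42 to 2.25 for *Cxcl9*, -0.05 to 0.10 for *Tnfsf12*, -0.24 to 0.25 for *Tnfsf13*, -0.09 to 0.43 for *Lif*, -0.78 to 1.39 for *Csf3*, -0.20 to 0.09 for *Il1b*, -0.04 to 0.12 for *Il17d* and -0.06 to 0.39 for *Il11*. Of the 34 members chosen by the rule for named genes, the others kept their direction under each alternative in which they were tested, whereas *Ccl8* and *Il16*, named outside that rule, turned from 0.35 to -0.38 and from 0.14 to -0.02 in edgeR without KO2, and *Ccl17* and *Il25* passed the threshold under the settings named above. Depth limits the members under about 1 CPM, such as *Il25*, *Cxcl9* and *Csf3*.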
